A study of Mus musculus with 14 samples.

Results

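Autophagy genes were described in sorted multipotent progenitors of old and young mouse bone marrow. The 40 genes were taken by symbol, from the kinases that start an autophagosome through the conjugation machinery to the lysosomal membrane and the transcription factors of the pathway. Of these, 38 matched a probe set with a single gene, each with 1 probe set, among 19155 genes measured. Rb1cc1 (the scaffold FIP200) and Optn (a cargo receptor) matched none and were not analysed here.

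The samples were 14 Affymetrix Mouse Gene ST 1.0 arrays, each made from RNA of 20000 cells sorted by flow cytometry from wild-type C57BL/6 bone marrow. There were 3 arrays of old MPP3, 3 of young MPP3, 3 of old MPP4 and 5 of young MPP4. Old mice were 24 months of age and young mice 8 to 10 weeks. MPP3 are myeloid-biased and MPP4 lymphoid-biased multipotent progenitors, and no group was treated. The study's methods call the replicates biological and independent, but how many mice stood behind each array is not given in the sources used here, and every p-value measures the spread between these arrays. A sorted population also holds a mixture of cells, in which fewer cells of a type and less RNA per cell cannot be told apart.

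Macroautophagy encloses cytoplasm in a double membrane and delivers it to the lysosome for breakdown. The ULK complex starts the process under control of nutrient sensors, a phosphatidylinositol 3-kinase complex marks the growing membrane, and ubiquitin-like conjugation systems attach LC3 and GABARAP proteins to it, where cargo receptors dock. In blood-forming tissue, autophagy is known for limiting mitochondrial mass and metabolic activity in stem cells, and FOXO3 is known to maintain its gene program there.

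A normalized value here is a rank measure. It is the negative natural log of the fraction of probe sets that reach or exceed the gene on its array, so it grows with expression and its differences are not folds. The array medians lay between 0.662 and 0.675. Flt3, whose product Flk2 separates the sorted populations, read 2.77 to 3.53 in MPP4 and 1.42 to 2.20 in MPP3. Kit read 2.63 to 3.10 on all arrays, with 3.02, 2.63 and 2.95 in old MPP3 and 3.10, 3.09 and 3.03 in young MPP3. Cd48, another sort marker, read 2.37, 2.34 and 2.48 in old MPP3 and 2.69, 2.50 and 2.68 in young MPP3. For both, all old MPP3 arrays lay below all young ones (50.0% of the 4 measured sort markers, against 8.04% of all genes). Of those 4, 3 had a lower mean in old MPP3 and 1 a higher one. Judged by the dimmest probe sets, a clustering told to give 2 groups put the arrays into 2 sets, which no label names. The number of sets was thus fixed beforehand, and how well they separate was not measured. The first (set 1) had 9 arrays, among them every old one, the first replicate of young MPP3 and the first pair of young MPP4. The other 5 young arrays made up set 2. The young arrays came from an earlier analysis that the old arrays extended, so age and the origin of the arrays cannot be told apart in full. Xist, made in female cells, was high on no old array and on 4 young ones (1 of MPP3 and 3 of MPP4). Among these 4, the Y-linked gene Eif2s3y read 0.022 on young MPP3 replicate 1 and 0.026 on young MPP4 replicate 1. It read 0.855 and 1.89 on young MPP4 replicates 4 and 5, which thus carried transcripts of both sexes. High Xist therefore does not mark arrays of female cells alone. For several of the differences described below, values from set 1 alone or without the high-Xist arrays are also given.

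No autophagy gene was called different between old and young mice in either population. No member passed an adjusted p of 0.05 for age (limma, adjusted over all genes), and neither did any other gene in these comparisons (percent called 0 in MPP3 and 0 in MPP4). The mean value over the 38 members was 1.31 ± 0.0641 in old MPP3 and 1.32 ± 0.0179 in young MPP3 (SD, n = 3 each). It was 1.36 ± 0.0106 in old MPP4 (SD, n = 3) and 1.33 ± 0.0287 in young MPP4 (SD, n = 5). These means pool members that ran in both directions. The median absolute age difference of a member was 0.0965 in MPP3, against 0.0578 over all genes, and 0.0777 in MPP4, against 0.0425. The median standard error of a member's age difference was 0.0848 in MPP3 and 0.0675 in MPP4.

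In MPP3, 18 members had a higher mean in old mice (47.4%, against 50.1% of all genes) and 20 a lower one. The median difference was -0.0371, against 1.83e-04 over all genes. At an unadjusted p under 0.05, 1 member was higher (2.63%, against 3.44% of all genes) and 3 were lower (7.89%, against 4.75%). In 1 member all old arrays lay above all young arrays (2.63%, against 6.14% of all genes), and in 6 they lay below (15.8%, against 8.04%). The 3 with a lower mean encode LC3B, GABARAPL1 and TFEB, and the 1 with a higher mean encodes ATG10.

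In MPP4, 25 members had a higher mean in old mice (65.8%, against 49.8% of all genes) and 13 a lower one. The median difference was 0.0431, against -1.71e-04 over all genes. At an unadjusted p under 0.05, 4 members were higher (10.5%, against 4.50% of all genes) and 3 were lower (7.89%, against 5.27%). Old arrays lay above all young arrays in 2 members (5.26%, against 3.28%) and below them in 0 members (0%, against 4.01%). The median difference was 0.0115 when only arrays of set 1 were used, against 0.0431 with all arrays.

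**Figure D1:**
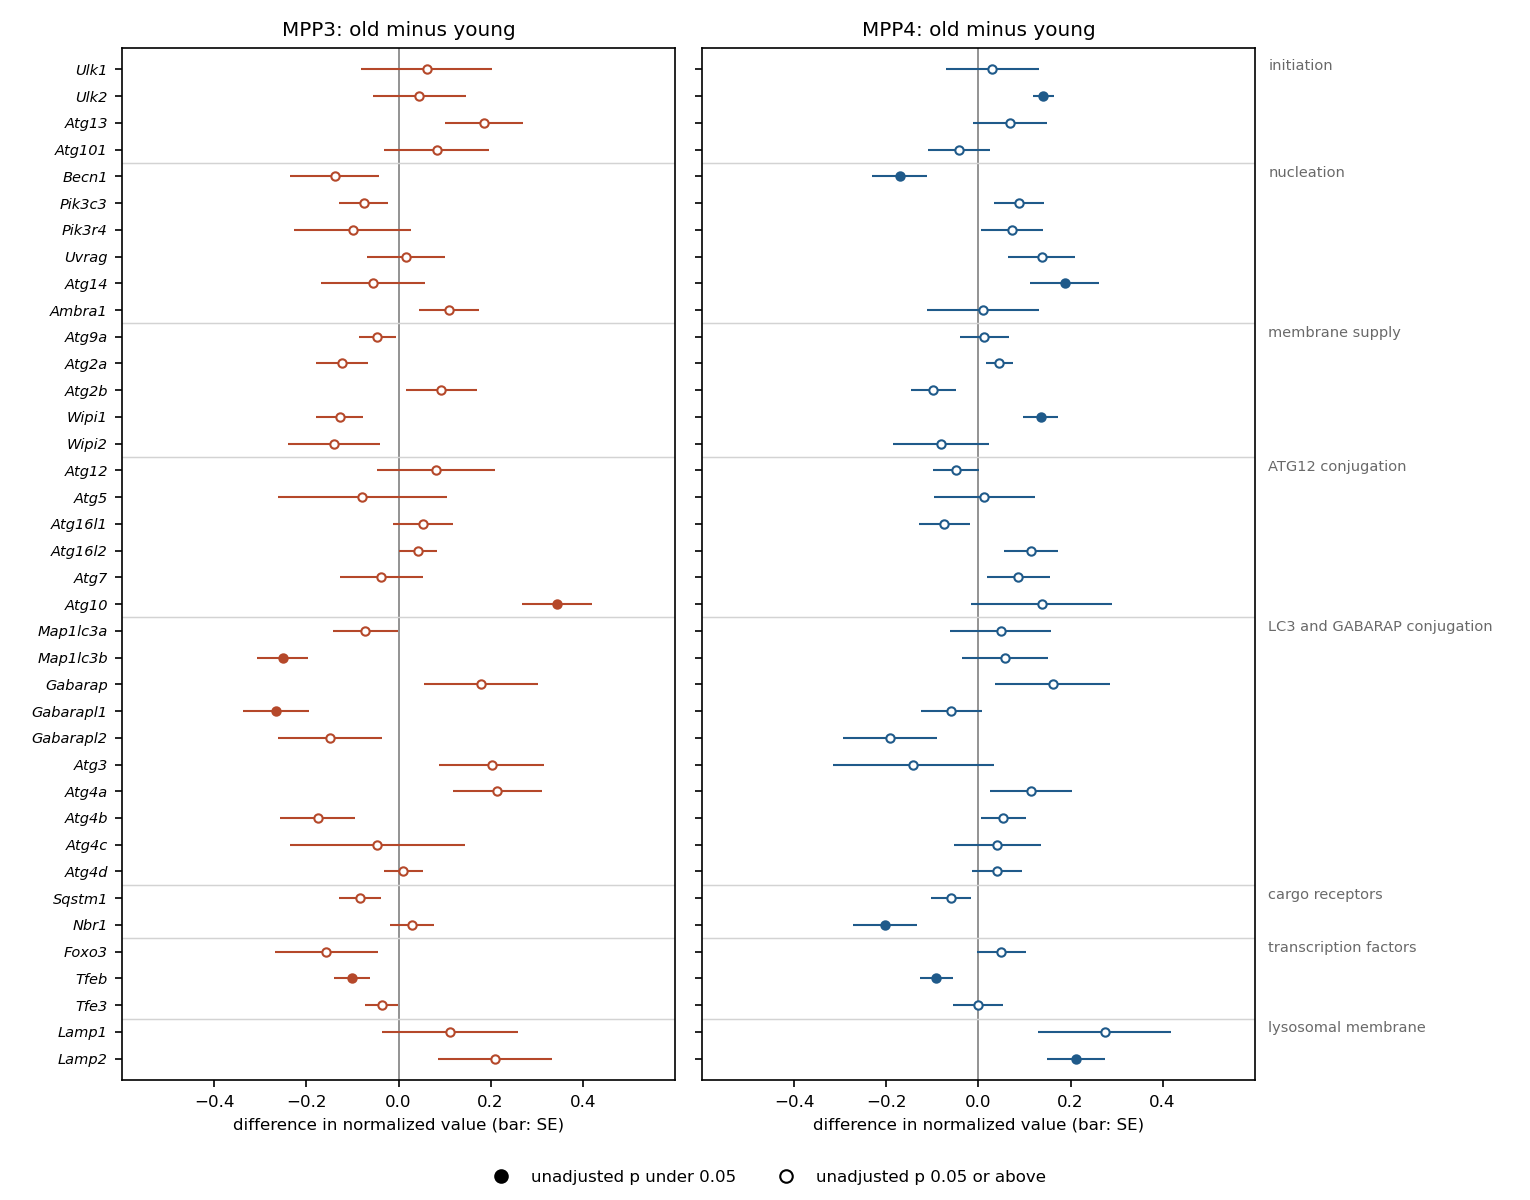
Old minus young difference in normalized value for the 38 measured autophagy genes, in MPP3 (left) and MPP4 (right), with genes grouped by role. Points are differences of group means, bars are standard errors from limma, and filled points have an unadjusted p under 0.05. The filled points number 4 in MPP3 (1 above 0 and 3 below) and 7 in MPP4 (4 above and 3 below).

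The ULK kinase complex starts autophagosome formation. All 4 of its measured members had a higher mean in old MPP3, by 0.0453 to 0.186, and none of these reached an unadjusted p of 0.05. Of the 4, Atg13 kept its direction both with set 1 and without the high-Xist array. With set 1 the difference was -0.182 for Ulk1 and -0.0261 for Atg101, and without the high-Xist array it was -0.0174 for Ulk2. In MPP4, 3 of the 4 had a higher mean in old mice, although Ulk1 had a difference of -0.134 with set 1. Ulk2, a serine/threonine kinase that acts beside ULK1, had the smallest p-value of all members in the MPP4 age comparison. It read 1.44, 1.37 and 1.41 in old MPP4, against 1.26, 1.31, 1.27, 1.25 and 1.24 in young MPP4. All old arrays lay above the young arrays of both sets. The difference was 0.141 ± 0.0235 (SE, limma adjusted p = 0.218), and it was 0.126 with arrays of set 1 alone. With each array weighted by its quality, the adjusted p of Ulk2 was 0.0428. That setting called 304 of all genes (1.59%), against 0 in the main fit.

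In MPP3 Ulk2 gave no such separation. It read 1.43, 1.22 and 1.11 in old MPP3, against 1.08, 1.25 and 1.28 in young MPP3. The groups overlapped, and the difference was 0.0453 ± 0.101 (SE). The difference between the age differences of MPP4 and MPP3 was 0.0961 with all arrays and -0.0450 with set 1, and did not pass the test. Ulk1, the principal kinase of the complex, read 1.23, 0.94 and 1.19 in old MPP3 against 1.30, 1.04 and 0.84 in young MPP3, and 1.17, 1.03 and 0.98 in old MPP4 against 1.30, 1.08, 0.94, 0.95 and 0.86 in young MPP4. Within the young groups, the set 1 arrays were the high ones for Ulk1 (1.08 to 1.30 in set 1 and 0.86 to 0.95 in set 2 of young MPP4). Atg13, the adaptor of the complex, and Atg101, which stabilizes it, had differences between -0.0421 and 0.186 in the age comparisons.

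Nucleation depends on the class III phosphatidylinositol 3-kinase VPS34 (Pik3c3), its regulatory kinase VPS15 (Pik3r4) and Beclin 1 (Becn1), which binds either ATG14 for autophagosome formation or UVRAG for later endosomal steps. Becn1 had a lower mean in old mice in both populations. It read 1.26, 1.21 and 1.37 in old MPP4, against 1.46, 1.32, 1.53, 1.53 and 1.41 in young MPP4, with 1 young array inside the old range. The difference was -0.171 ± 0.0601 (SE, limma adjusted p = 0.453) and -0.109 with set 1 alone. In MPP3 Becn1 read 1.20, 1.25 and 1.15 in old mice, against 1.13, 1.44 and 1.44 in young mice. The low young array was both the one of set 1 and the one with high Xist. The difference was -0.139 ± 0.0964 (SE) with all arrays, 0.0685 against that array alone and -0.243 without it (limma adjusted p = 0.174).

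Atg14 read 1.71, 1.52 and 1.39 in old MPP4, against 1.33, 1.48, 1.34, 1.26 and 1.34 in young MPP4, a difference of 0.187 ± 0.0758 (SE, limma adjusted p = 0.491) with overlapping groups. Without the old MPP4 array at 1.71 it was 0.103. In MPP3 it read 1.18, 1.37 and 1.33 in old mice, against 1.51, 1.41 and 1.13 in young mice. Atg14 thus had its highest mean in old MPP4, and the MPP4 minus MPP3 difference was 0.244 ± 0.0960 in old mice (SE, limma adjusted p = 0.507) and 0.160 without that array. Uvrag had a higher mean in MPP4 than in MPP3 at both ages. It read 2.71, 2.48 and 2.44 in old MPP4 against 2.16, 2.26 and 2.30 in old MPP3, without overlap (difference 0.304 ± 0.0824, SE, limma adjusted p = 0.381). In young mice it read 2.36, 2.29, 2.41, 2.50 and 2.47 in MPP4 against 2.06, 2.35 and 2.26 in MPP3 (difference 0.184 ± 0.0734, SE, limma adjusted p = 0.423). The young groups overlapped, since 1 MPP4 array lay below the highest MPP3 array. The young difference was 0.103 without the MPP3 array at 2.06 and 0.0476 without all high-Xist arrays. Pik3c3, Pik3r4 and Ambra1, a Beclin 1 partner, had no p-value under 0.05 in any of the 4 comparisons.

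The supply of membrane to the growing autophagosome involves the lipid scramblase ATG9A, the lipid transfer proteins ATG2A and ATG2B and the phosphoinositide-binding WIPI proteins. Wipi1, which recognizes the lipid made by VPS34, ran in opposite directions with age in the populations. In MPP3 it read 0.54, 0.52 and 0.38 in old mice, against 0.64, 0.57 and 0.62 in young mice. All old arrays lay below all young arrays, with a difference of -0.128 ± 0.0513 (SE, limma adjusted p = 0.613). In MPP4 it read 0.63, 0.53 and 0.57 in old mice, against 0.43, 0.53, 0.40, 0.45 and 0.40 in young mice. The MPP4 groups touched at 0.53, and the difference was 0.135 ± 0.0377 (SE, limma adjusted p = 0.383).

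The difference between these age differences was 0.263 ± 0.0630 (SE, limma adjusted p = 0.524), the smallest p-value of a member in that test, and it was 0.253 with arrays of set 1. In young mice all MPP4 arrays lay below all MPP3 arrays for Wipi1 (difference -0.166 ± 0.0368, SE, limma adjusted p = 0.178). In old mice the MPP4 minus MPP3 difference was 0.0966 ± 0.0520 (SE). Wipi1 lay below the middle of the ranking on every array, so all of this took place among dim probe sets. Atg2a read 0.65, 0.66, 0.72, 0.69 and 0.60 in young MPP4, against 0.71, 0.83 and 0.90 in young MPP3 (difference -0.147 ± 0.0465, SE, limma adjusted p = 0.308). In old mice it was nearly level between populations, at 0.74, 0.70 and 0.69 in MPP4 and 0.66, 0.73 and 0.67 in MPP3. Atg2b, Atg9a and Wipi2 had no p-value under 0.05 in these comparisons.

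**Figure D2:**
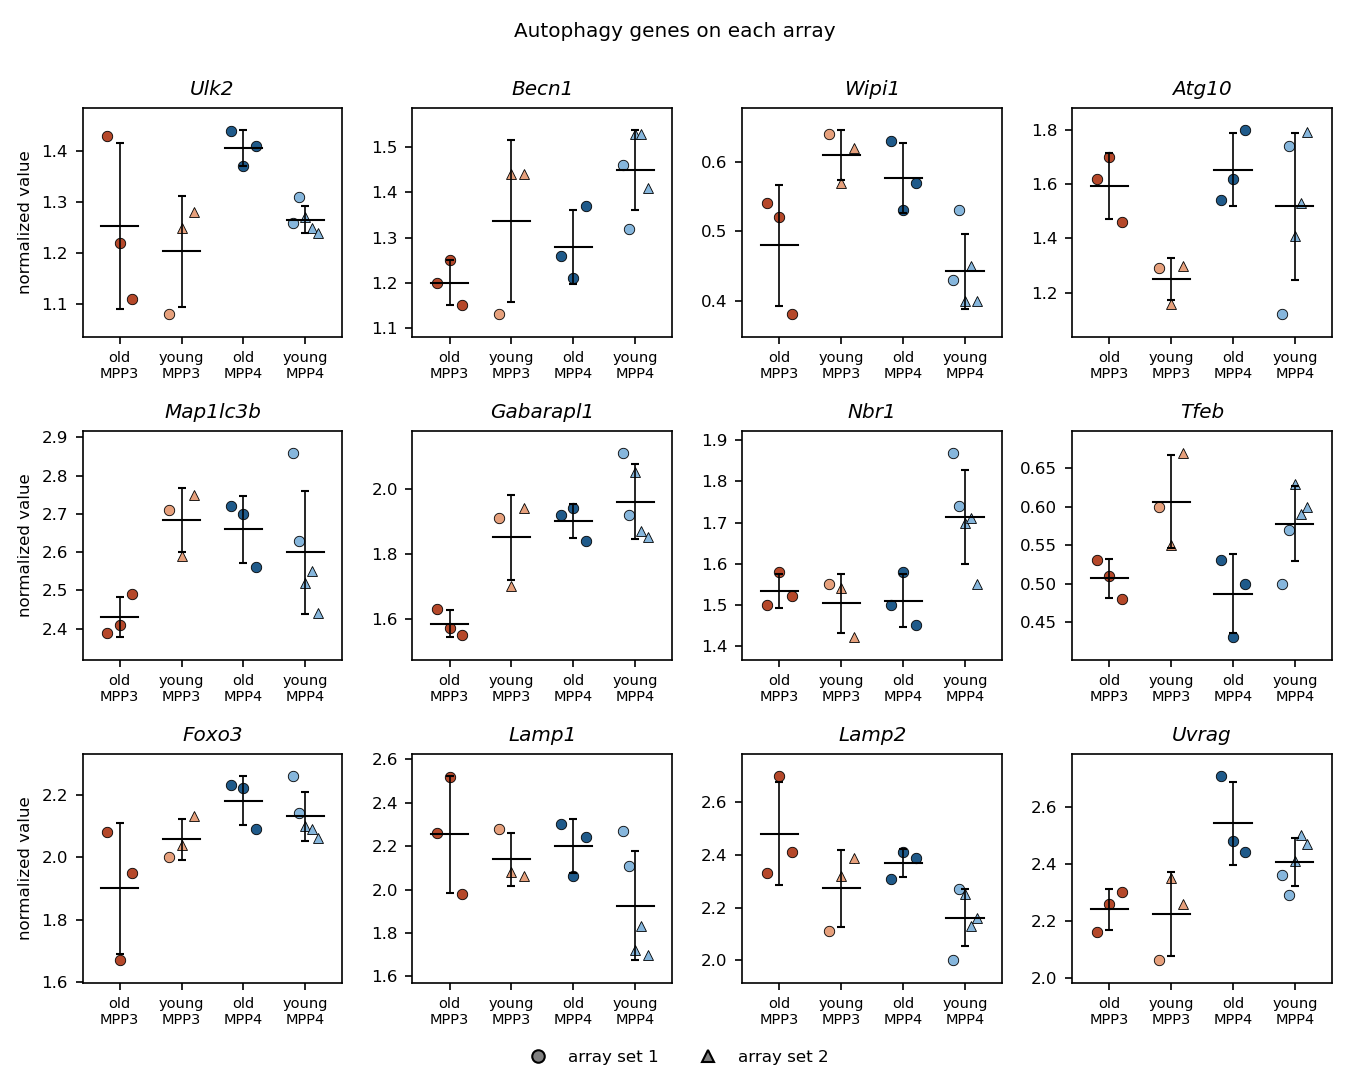
Normalized value of 12 autophagy genes on each of the 14 arrays, for old MPP3, young MPP3, old MPP4 and young MPP4 from left to right in each panel. Circles are arrays of set 1, triangles arrays of set 2, horizontal lines group means and bars SD. The vertical axes differ between panels and do not start at 0. In the Ulk2 panel the 3 old MPP4 arrays sit between 1.37 and 1.44, above all young MPP4 arrays.

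The ubiquitin-like protein ATG12 is activated by the E1-like enzyme ATG7, passed to the E2-like enzyme ATG10 and joined to ATG5, and the product binds ATG16L1. Atg10 had the smallest p-value of all members in the MPP3 age comparison. It read 1.62, 1.70 and 1.46 in old MPP3, against 1.29, 1.16 and 1.30 in young MPP3. All old arrays lay above all young arrays, and the difference was 0.344 ± 0.0757 (SE, limma adjusted p = 0.488). In MPP4 it read 1.54, 1.62 and 1.80 in old mice, against 1.12, 1.74, 1.41, 1.53 and 1.79 in young mice. The young MPP4 arrays spread over the whole range of the old ones, and the difference was 0.137 with a standard error larger than itself.

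Atg5, the acceptor of ATG12, had the widest scatter of the list in old MPP3, where replicate 3 was low. It read 0.94, 0.92 and 0.35 in old MPP3 against 0.66, 0.96 and 0.82 in young MPP3, and 0.66, 0.94 and 0.90 in old MPP4 against 0.56, 0.75, 1.00, 0.90 and 0.90 in young MPP4. Atg7 read 1.42, 1.28 and 1.14 in old MPP3 against 1.43, 1.23 and 1.29 in young MPP3, and 1.28, 1.29 and 1.21 in old MPP4 against 1.31, 1.26, 1.18, 1.00 and 1.11 in young MPP4. Neither gene separated the ages, with differences of -0.0787 ± 0.183 (Atg5) and -0.0373 ± 0.0895 (Atg7) in MPP3 and 0.0127 ± 0.110 and 0.0869 ± 0.0687 in MPP4 (SE). Without the high-Xist arrays, Atg7 had a difference of 0.0187 in MPP3 and Atg5 one of -0.0378 in MPP4, and with set 1 the values were 0.0719 for Atg5 in MPP3 and -0.0247 for Atg7 in MPP4, so their signs turned. Atg12, Atg16l1 and Atg16l2 had no p-value under 0.05 in the 4 comparisons.

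The LC3 and GABARAP proteins are the ubiquitin-like proteins that become attached to the membrane. They are prepared by the ATG4 proteases and joined to lipid by ATG7 and the E2-like enzyme ATG3. Of the 4 groups, old MPP3 had the lowest means of Map1lc3b and Gabarapl1. Map1lc3b, which encodes the widely used autophagosome marker LC3B, read 2.39, 2.41 and 2.49 in old MPP3, against 2.71, 2.59 and 2.75 in young MPP3. All old arrays lay below all young arrays (difference -0.252 ± 0.0559, SE, limma adjusted p = 0.488). Gabarapl1, a GABARAP homolog, read 1.63, 1.57 and 1.55 in old MPP3, against 1.91, 1.70 and 1.94 in young MPP3. Its difference was -0.266 ± 0.0713 (SE, limma adjusted p = 0.511). With the single young array of set 1 these differences were -0.279 for Map1lc3b and -0.323 for Gabarapl1.

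In MPP4 neither gene separated the ages. Map1lc3b read 2.72, 2.70 and 2.56 in old MPP4, against 2.86, 2.63, 2.52, 2.55 and 2.44 in young MPP4. Gabarapl1 read 1.92, 1.94 and 1.84 in old MPP4, against 2.11, 1.92, 2.05, 1.87 and 1.85 in young MPP4. Within old mice every MPP4 array therefore lay above every MPP3 array for both genes. The MPP4 minus MPP3 difference in old mice was 0.316 ± 0.0392 for Gabarapl1 (SE, limma adjusted p = 0.203) and 0.228 ± 0.0548 for Map1lc3b (SE, limma adjusted p = 0.343). By the statistic of the kind named in the study's methods, with a constant added to the standard error, Gabarapl1 had a q-value of 0.0274 in old mice. That statistic called 142 of all genes there (0.741%). The difference between the age differences was 0.311 ± 0.123 for Map1lc3b (SE, limma adjusted p = 0.765; 0.191 with set 1) and 0.206 ± 0.102 for Gabarapl1 (SE, limma adjusted p = 0.837). These tests share the old MPP3 arrays with the age comparison and are not separate evidence.

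Gabarapl2 read 1.08, 1.23 and 1.10 in old MPP4 against 0.97, 1.00 and 0.87 in old MPP3, again without overlap (difference 0.190 ± 0.0560, SE, limma adjusted p = 0.396). Its young arrays followed the array sets, at 1.12 to 1.17 in set 1 and 1.40 to 1.53 in set 2 of young MPP4. In young MPP3 it read 0.87 on the set 1 array and 1.28 and 1.14 on the others. Such a split of the young arrays was common, at 48.9% of all genes in MPP4 and 84.6% in MPP3. The age difference of Gabarapl2 in MPP4 was -0.192 ± 0.102 (SE) with all arrays and -0.00512 with set 1. Map1lc3a ran the other way between populations. It read 1.19, 1.19 and 1.19 in old MPP4 against 1.36, 1.20 and 1.40 in old MPP3, and 1.45, 1.15, 0.89, 1.14 and 1.08 in young MPP4 against 1.47, 1.40 and 1.31 in young MPP3. The MPP4 minus MPP3 difference was -0.133 ± 0.0571 in old mice (SE, limma adjusted p = 0.544) and -0.253 ± 0.114 in young mice (SE, limma adjusted p = 0.484). Gabarap had no p-value under 0.05 in the 4 comparisons.

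Among the enzymes of this step, Atg4b, a major LC3 protease, read 0.60, 0.64 and 0.40 in old MPP3 against 0.83, 0.64 and 0.71 in young MPP3. The groups did not overlap before rounding (difference -0.176 ± 0.0818, SE, limma adjusted p = 0.650). In MPP4 it read 0.50, 0.60 and 0.67 in old mice against 0.62, 0.45, 0.54, 0.54 and 0.53 in young mice, with overlap. In young mice the MPP4 values of Atg4b lay below those of MPP3 without overlap (difference -0.188 ± 0.0516, SE, limma adjusted p = 0.246). Atg4a, which lies on the X chromosome, read 0.97, 1.09 and 1.12 in old MPP3 against 0.68, 0.84 and 1.02 in young MPP3 (difference 0.215 ± 0.0962, SE, limma adjusted p = 0.638), and 0.81, 1.04 and 1.12 in old MPP4 against 0.80, 0.96, 0.77, 0.81 and 1.05 in young MPP4. The lowest young MPP3 array was the one with high Xist, and the MPP3 difference was 0.132 without it and 0.380 against it alone. Atg3, Atg4c and Atg4d had no p-value under 0.05 in the 4 comparisons.

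Cargo receptors link ubiquitinated cargo to LC3. Sqstm1, which encodes p62, read 1.06, 1.07 and 1.10 in old MPP3 against 1.25, 1.12 and 1.12 in young MPP3, with all old arrays lower and a difference of -0.0840 ± 0.0448 (SE, limma adjusted p = 0.674). The value was -0.172 with set 1 and -0.0401 without the high-Xist array. In MPP4 it read 1.06, 1.18 and 1.10 in old mice against 1.26, 1.11, 1.21, 1.14 and 1.14 in young mice, with overlap. Nbr1, a receptor that also takes up protein aggregates, stood highest in young MPP4. It read 1.50, 1.58 and 1.45 in old MPP4, against 1.87, 1.74, 1.70, 1.71 and 1.55 in young MPP4. Only the young array at 1.55 reached into the old range, and the difference was -0.203 ± 0.0696 (SE, limma adjusted p = 0.448). With set 1 alone it was -0.296.

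In MPP3 Nbr1 was level between the ages, at 1.50, 1.58 and 1.52 in old mice and 1.55, 1.54 and 1.42 in young mice. The MPP4 minus MPP3 difference was 0.207 ± 0.0711 in young mice (SE, limma adjusted p = 0.353) and -0.0249 in old mice. The difference between the age differences was -0.232 ± 0.0929 (SE, limma adjusted p = 0.769).

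The transcription factors TFEB and TFE3 induce lysosomal and autophagy genes when nutrient signalling is low, and FOXO3 induces autophagy genes in blood stem cells. All 3 had a lower mean in old MPP3. Tfeb read 0.53, 0.51 and 0.48 in old MPP3 against 0.60, 0.55 and 0.67 in young MPP3, without overlap (difference -0.101 ± 0.0386, SE, limma adjusted p = 0.596). In MPP4 it read 0.53, 0.43 and 0.50 in old mice against 0.50, 0.57, 0.63, 0.59 and 0.60 in young mice (difference -0.0915 ± 0.0359, SE, limma adjusted p = 0.489). The Tfeb differences were the only ones at an unadjusted p under 0.05 with the same sign in both populations. They lay among dim probe sets, since 54.5% to 61.5% of probe sets were at or above the Tfeb group means. Only on the young MPP3 array at 0.67 did Tfeb lie above the array median, which was 0.664 there. In young MPP4 the set 2 arrays were the high ones, and with set 1 alone the MPP4 difference was -0.0448.

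Foxo3 did not separate the ages. It read 2.08, 1.67 and 1.95 in old MPP3 against 2.00, 2.04 and 2.13 in young MPP3, and 2.23, 2.22 and 2.09 in old MPP4 against 2.26, 2.14, 2.10, 2.09 and 2.06 in young MPP4. In old mice all MPP4 arrays lay above all MPP3 arrays (difference 0.281 ± 0.113, SE, limma adjusted p = 0.515), with old MPP3 replicate 2 as the lowest. Tfe3, like Wipi1, lay below the middle of the ranking on every array, and its age differences were -0.0369 in MPP3 and -0.00160 in MPP4 (-0.0974 in MPP4 with set 1).

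TFEB and TFE3 bind the palindrome CACGTG, which reads the same on both strands. Promoter sequences were looked up in RefSeq (GRCm38.p6), and 34 of the 40 members had at least 1 entry, 40 windows in all. The palindrome occurred in the 250 bases before the start in 4 of these windows, and in 6.02% of all 32851 windows of the table. The 4 stretches printed next, each of 100 bases on the plus strand, are shown because they carry the palindrome of the factors just described, in capitals. They belong to Lamp1 (chr8:13159061-13159160), Atg3 (chr16:45158729-45158828), Atg5 (chr10:44268239-44268338) and Atg7 (chr6:114670946-114671045). The first 3 end at the base before the start, and the Atg7 stretch runs from 150 to 51 bases before it.
Lamp1: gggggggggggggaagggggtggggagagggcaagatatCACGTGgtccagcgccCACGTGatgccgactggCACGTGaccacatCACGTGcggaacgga
Atg3: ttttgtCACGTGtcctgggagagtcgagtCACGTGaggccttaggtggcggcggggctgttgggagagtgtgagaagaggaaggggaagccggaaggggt
Atg5: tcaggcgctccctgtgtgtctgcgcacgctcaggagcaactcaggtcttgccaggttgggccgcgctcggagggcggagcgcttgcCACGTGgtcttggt
Atg7: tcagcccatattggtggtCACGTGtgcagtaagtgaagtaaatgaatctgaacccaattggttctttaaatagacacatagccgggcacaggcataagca
Lamp1 held 4 copies within 61 bases of its start, Atg3 held 2, and Atg5 and Atg7 held 1 each. A match describes letters only and says nothing of binding in these cells. None of these 4 genes had an unadjusted p under 0.05 in either age comparison, with differences from -0.0787 (Atg5) to 0.202 (Atg3) in MPP3 and from -0.142 (Atg3) to 0.274 (Lamp1) in MPP4. With set 1, the Atg3 difference was 0.382 in MPP3 and 0.131 in MPP4.

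LAMP1 and LAMP2 are the abundant glycoproteins of the lysosomal membrane, and LAMP2 takes part in fusion with autophagosomes and in chaperone-mediated autophagy. Both genes had a higher mean in old mice in both populations with all arrays. Lamp2 read 2.31, 2.41 and 2.39 in old MPP4 against 2.00, 2.27, 2.25, 2.13 and 2.16 in young MPP4. All old arrays lay above all young arrays (difference 0.211 ± 0.0631, SE, limma adjusted p = 0.399). Lamp2 is X-linked, and the young arrays with high Xist read 2.00, 2.13 and 2.16, below the other 2. Without those arrays the difference was 0.112, and with set 1 alone 0.235. In MPP3 it read 2.33, 2.70 and 2.41 in old mice against 2.11, 2.32 and 2.39 in young mice, with the high-Xist array again the lowest, and its difference was 0.210 with all arrays and 0.127 without that array. What the sex of the mice contributed was not tested beyond leaving those arrays out.

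Lamp1 had the largest age difference of the list in MPP4, and it followed the array sets. It read 2.30, 2.06 and 2.24 in old MPP4 against 2.27, 2.11, 1.72, 1.83 and 1.70 in young MPP4. The 2 young arrays of set 1 lay within the old range and the 3 of set 2 lay below it. The difference was 0.274 ± 0.145 (SE, limma adjusted p = 0.582) with all arrays and 0.00967 with set 1 alone. In MPP3 Lamp1 read 2.26, 2.52 and 1.98 in old mice against 2.28, 2.08 and 2.06 in young mice, with overlap, and its difference was 0.112 with all arrays and -0.0238 with set 1. Over the list, the young MPP4 arrays of the 2 sets did not overlap in 19 of 38 members (50.0%), against 48.9% of all genes. In young MPP3, with 1 array in set 1 and 2 in set 2, this held for 33 members (86.8%), against 84.6% of all genes.

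Between MPP4 and MPP3, the median absolute difference of a member was 0.0860 in old mice, against 0.0505 over all genes, and 0.0771 in young mice, against 0.0480. In old mice 22 members had a higher mean in MPP4 (57.9%, against 48.3% of all genes) and 16 a lower one, with a median difference of 0.0347 against -0.00149 over all genes. At an unadjusted p under 0.05, 5 members were higher (13.2%, against 6.19% of all genes) and 0 were lower (0%, against 3.64%). In 6 members all MPP4 arrays lay above all MPP3 arrays (15.8%, against 9.03%) and in 1 they lay below (2.63%, against 7.60%). In young mice 23 members had a higher mean in MPP4 (60.5%, against 49.9% of all genes) and 15 a lower one, with a median difference of 0.0315 against -1.29e-04. There, 2 members were higher (5.26%, against 5.48%) and 3 lower (7.89%, against 5.53%) at that level. All MPP4 arrays lay above all MPP3 arrays in 0 members (0%, against 3.74%) and below them in 2 (5.26%, against 3.72%). No member passed an adjusted p of 0.05 in either age (percent called over all genes 0 in old mice and 0.131 in young mice). In the test of the difference between the age differences, 24 members were above 0 (63.2%, against 48.7% of all genes) and 14 below. At an unadjusted p under 0.05, 4 were above 0 (10.5%, against 3.44%) and 1 below (2.63%, against 2.83%). No member passed the adjusted threshold there, and no other gene did (percent called 0).

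**Figure D3:**
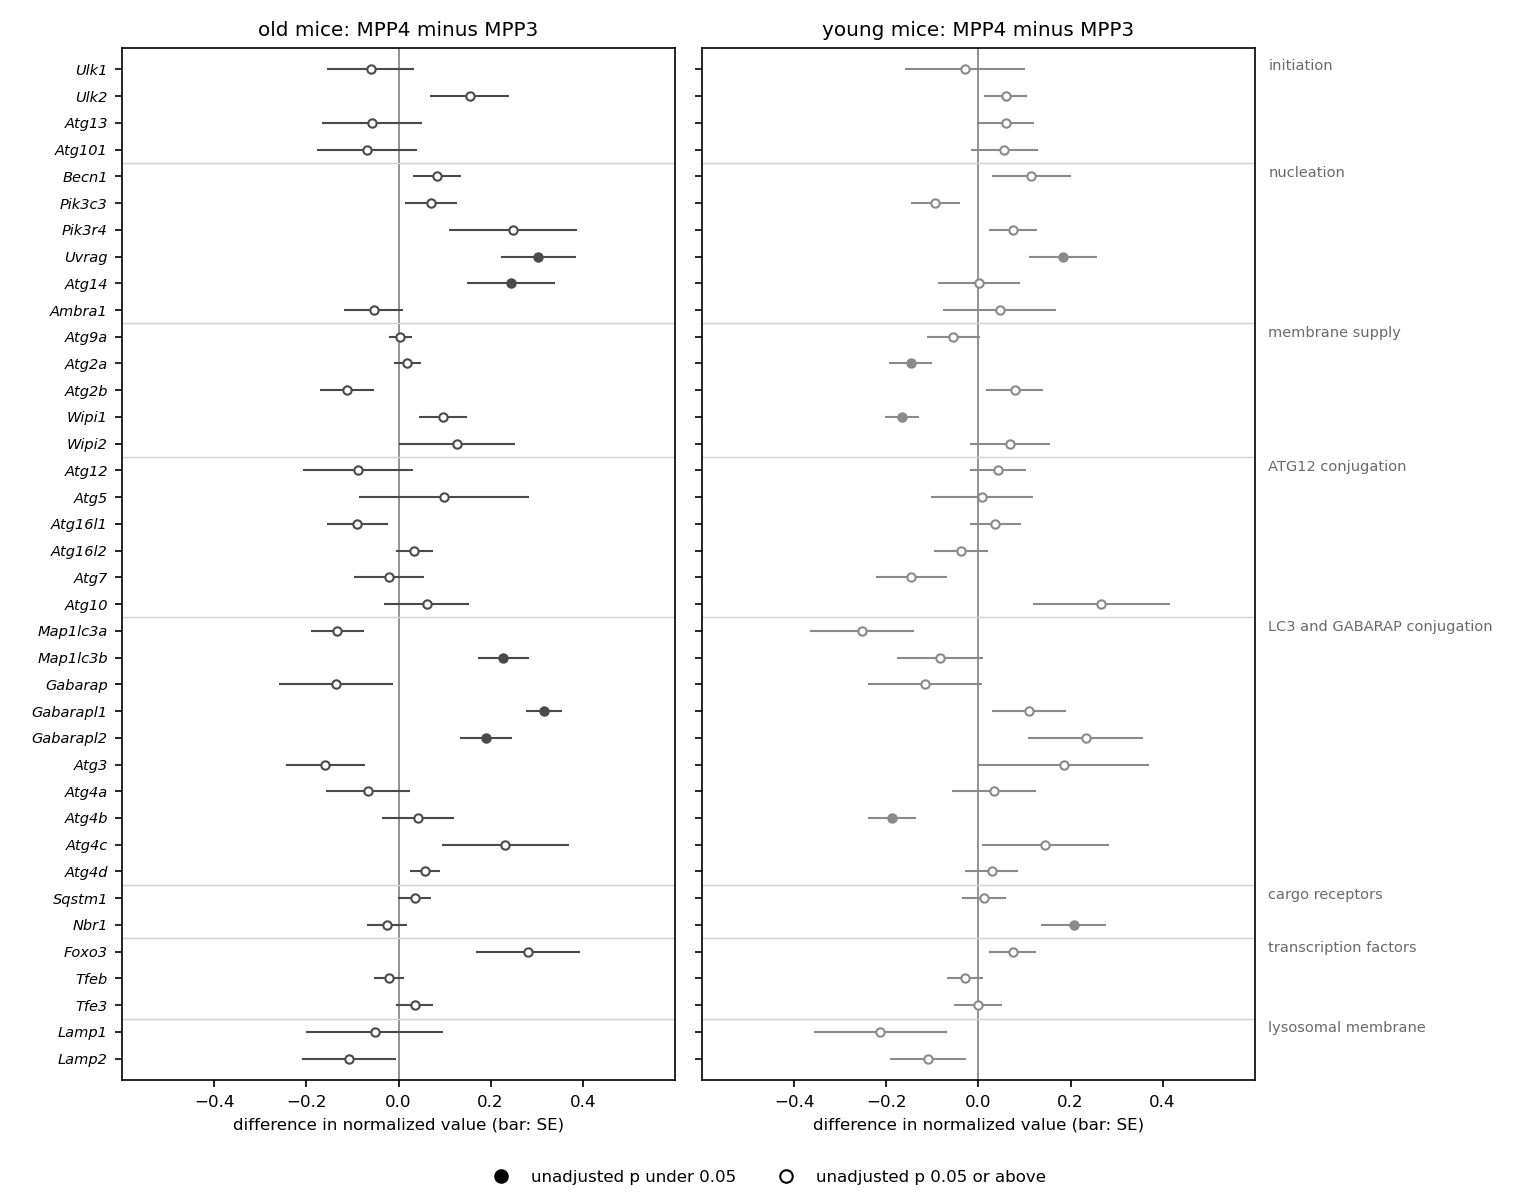
MPP4 minus MPP3 difference in normalized value for the 38 measured autophagy genes, in old mice (left) and young mice (right), with genes grouped by role. Points are differences of group means, bars are standard errors from limma, and filled points have an unadjusted p under 0.05. In old mice the 5 filled points (Gabarapl1, Map1lc3b, Uvrag, Gabarapl2 and Atg14) all lie above 0, and in young mice 2 lie above and 3 below.

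Related lists around the 38 members were examined in the same fits. No gene of any of them passed an adjusted p of 0.05 in the age or population comparisons. Among 27 lysosomal hydrolase and membrane genes, 19 had a higher mean in old MPP3 (70.4%, against 50.1% of all genes, median difference 0.115). In old MPP4 19 had a higher mean (70.4%, against 49.8%, median 0.0262). At an unadjusted p under 0.05, 2 were higher (7.41%, against 3.44% of all genes) and 1 lower (3.70%, against 4.75%) in old MPP3. In old MPP4, 3 were higher (11.1%, against 4.50%) and 1 lower (3.70%, against 5.27%). Glb1, the lysosomal beta-galactosidase, averaged 1.63 ± 0.0622 in old MPP3 and 1.31 ± 0.0670 in young MPP3 (SD, n = 3 each). Its difference was 0.320 ± 0.0507 (SE, limma adjusted p = 0.471), and the difference between its age differences was -0.398 (limma adjusted p = 0.524).

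Of 27 genes of nutrient sensing by mTORC1 and AMPK, 12 had a higher mean in old MPP3 (44.4%, against 50.1% of all genes). In old MPP4 14 did (51.9%, against 49.8%). An unadjusted p under 0.05 was reached by 3.70% in MPP3 and 14.8% in MPP4, against 8.19% and 9.77% of all genes. Prkaa1, a catalytic subunit of AMPK, averaged 1.90 ± 0.125 in old MPP4 (SD, n = 3) and 1.68 ± 0.0136 in young MPP4 (SD, n = 5), a difference of 0.220 ± 0.0502 (SE, limma adjusted p = 0.323). Tsc2, an inhibitor of mTORC1 signalling, had a difference of -0.144 (limma adjusted p = 0.395) there. Of 22 further genes of autophagosome formation and fusion, 12 had a higher mean in old MPP3 (54.5%) and 8 in old MPP4 (36.4%). Of these 22, 13.6% reached an unadjusted p under 0.05 in MPP3 and 4.55% in MPP4. Vps16, a subunit of the HOPS tethering complex, averaged 1.56 ± 0.0386 in old MPP3 and 1.35 ± 0.0369 in young MPP3 (SD, n = 3 each).

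Of 14 further selective autophagy receptors, 10 had a higher mean in old MPP3 (71.4%, against 50.1% of all genes). In old MPP4 6 did (42.9%, against 49.8%). At an unadjusted p under 0.05, 2 were higher (14.3%, against 3.44% of all genes) and 1 lower (7.14%, against 4.75%) in old MPP3. In old MPP4, 1 was higher (7.14%, against 4.50%) and 3 were lower (21.4%, against 5.27%). Between populations, 3 of the 14 had a higher mean in MPP4 in old mice (21.4%, against 48.3% of all genes) and 11 a lower one. In young mice 6 were higher (42.9%, against 49.9%) and 8 lower. Fundc1, a mitophagy receptor of the outer mitochondrial membrane, had the smallest p-value of these lists in both population comparisons. Fundc1 is X-linked. Its population difference in old mice involves no high-Xist array. Its other differences were not examined without those arrays. It averaged 1.81 ± 0.225 in old MPP4 and 1.03 ± 0.122 in old MPP3 (SD, n = 3 each), a difference of 0.785 ± 0.130 (SE, limma adjusted p = 0.239). In young mice it averaged 1.86 ± 0.132 in MPP4 (SD, n = 5) and 1.41 ± 0.0751 in MPP3 (SD, n = 3), a difference of 0.446 ± 0.0783 (SE, limma adjusted p = 0.106). Old MPP3 thus held the lowest Fundc1 values, with an old minus young difference of -0.382 ± 0.0751 in MPP3 (SE, limma adjusted p = 0.471). Bnip3, another mitophagy receptor, had a difference of -0.479 ± 0.176 between old and young MPP4 (SE, limma adjusted p = 0.469). Tax1bp1, a ubiquitin-binding receptor, had one of 0.215 ± 0.0367 between old and young MPP3 (SE, limma adjusted p = 0.471).

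Of the 15 subunits of the V-ATPase, the proton pump that acidifies lysosomes, 9 had a higher mean in old MPP3 (60.0%, against 50.1% of all genes). In old MPP4 7 did (46.7%, against 49.8%). An unadjusted p under 0.05 was reached by 13.3% in MPP3 and 6.67% in MPP4, against 8.19% and 9.77% of all genes. Of 6 further FOXO and MiT/TFE factors, 3 had a higher mean in old MPP3 (50.0%) and 2 in old MPP4 (33.3%). Of these 6, 16.7% reached an unadjusted p under 0.05 in MPP3 and 0% in MPP4. Tfec, the family member found in myeloid cells, averaged 2.16 ± 0.217 in old MPP4 and 2.88 ± 0.272 in old MPP3 (SD, n = 3 each), a difference of -0.728 ± 0.176 (SE, limma adjusted p = 0.343). Of the 6 factors, 4 had a higher mean in MPP4 in old mice (66.7%, against 48.3% of all genes). Grn, which encodes the lysosomal protein progranulin, had a lower mean in MPP4 than in MPP3, with a difference of -0.252 in old mice (limma adjusted p = 0.360) and -0.401 in young mice (limma adjusted p = 0.159). Of the 27 lysosomal genes, 11 had a higher mean in MPP4 in old mice (40.7%, against 48.3% of all genes) and 14 in young mice (51.9%, against 49.9%).

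**Figure D4:**
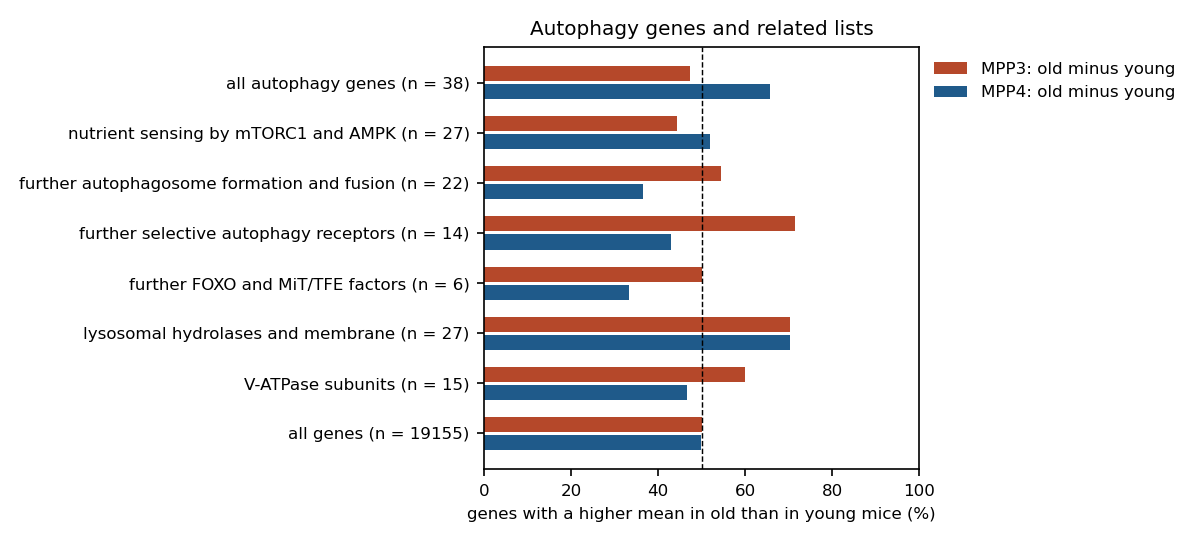
Percent of measured genes with a higher mean in old than in young mice, for the autophagy genes, the related lists and all genes, in MPP3 and MPP4. Bars start at 0 and the dashed line marks 50%. The autophagy genes stand at 47.4% in MPP3 and 65.8% in MPP4, and the lysosomal list at 70.4% in both.

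Markers of more mature cells differed in both directions between old and young MPP3. The mean of 10 neutrophil markers was 0.790 to 1.19 in old MPP3 and 0.527 to 0.735 in young MPP3, with 7 of the 10 higher in old mice. The mean of 8 mast cell and basophil markers was 0.596 to 1.34 in old MPP3 and 0.498 to 0.749 in young MPP3, with 6 of the 8 higher. The mean of 12 macrophage and monocyte markers was 0.628 to 0.738 in old MPP3 and 0.575 to 0.635 in young MPP3, with 6 of the 12 higher. The mean of 7 T and NK cell markers was 0.735 to 0.797 in old MPP3 and 0.634 to 0.735 in young MPP3, with 3 of the 7 higher. The mean of 8 stromal and endothelial markers was 0.606 to 0.680 in old MPP3 and 0.572 to 0.696 in young MPP3, with 4 of the 8 higher. In the erythroid, B cell and megakaryocyte lists most markers had a lower mean in old MPP3. The mean of 7 erythroid markers was 0.929 to 1.20 in old MPP3 and 1.15 to 1.43 in young MPP3, with 6 of the 7 lower. Of 7 B cell markers 6 were lower (list means 0.652 to 1.33 in old MPP3 and 0.660 to 1.26 in young MPP3), and of 5 megakaryocyte markers 4 were lower (0.559 to 0.806 and 0.713 to 0.840). Array values have no true zero, so absence of a marker cannot be stated. In MPP4 the same neutrophil list read 0.335 to 0.482 in old mice and 0.314 to 0.461 in young mice, with 6 of the 10 higher. The mast cell and basophil list read 0.381 to 0.429 in old MPP4 and 0.276 to 0.402 in young MPP4, with 5 of the 8 higher. Of these 8, 2 were higher at an unadjusted p under 0.05 (25.0%, against 4.50% of all genes). In every marker list the old and young MPP4 ranges overlapped. The part of these markers in the MPP3 differences of Map1lc3b, Gabarapl1, Atg10 and the lysosomal list was not tested.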

How the data were processed

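Normalized values of 14 arrays were used as deposited. The authors made them by RMA followed by quantile normalization in R, with each array mapped onto an exponential reference, which gives a score of rank: 92.29% of values fell on a whole rank among 25307 probe sets, with a tolerance of 0.01. The genome build was not given in the sources used here. Of 22115 probe sets, 2135 were not in the platform annotation and 744 named several genes, and both kinds were left out. For 76 genes with several probe sets the one with the highest mean was used. This gave 19155 genes, 71 without a RefSeq match. No filter on dim probe sets was applied.

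In each population old mice were set against young mice, and at each age MPP4 against MPP3, in fits of the arrays concerned. Age differences were compared between populations in a fit of all arrays. Linear models were fitted with limma 3.58.1 (lmFit, eBayes) in R 4.3.3, with Benjamini-Hochberg adjustment over all genes, a threshold of 0.05 and two-sided tests. Tables and figures were made with Python 3.11.15. The procedure was tested on simulated data with independent noise and added differences larger than any member age difference seen here. That test does not show whether differences of the size seen could be called. Precision is limited by the number of arrays. The members, the lists and the naming rule were chosen with earlier results of these data known. Values are printed for the 6 members with the smallest p in each age and population comparison and for Foxo3, Tfeb, Ulk1, Becn1, Atg5, Atg7, Map1lc3b, Sqstm1, Lamp1 and Lamp2, with Gabarap, Atg3 and the others summarised, and for up to 2 genes of each related list with the smallest p. Alternatives were other scalings, a dim-gene filter, array weights, a SAM-type statistic (the kind named in the study's methods), a replicate block, 1 fit of all groups, the array sets, the Xist arrays left out and each array left out. Counts at an unadjusted p were added after the data were seen.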

Additional observations from a re-analysis of the deposited data

Results flagged for a closer look

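Among the 38 members, the young MPP4 group of 5 arrays held 2 values far from the other arrays, by a gap to the nearest array that was large beside the group's range (Dixon's rule). Chance gives such a gap in about 1 in 20 groups, and 38 groups of 5 arrays were looked at. Wipi2, which binds the lipid made by VPS34, read 1.72 on young MPP4 replicate 1, against 1.32 to 1.40 on the other 4, a gap of 0.806 of the range. Atg9a, the lipid scramblase of the forming autophagosome, read 0.57 on young MPP4 replicate 2, against 0.74 to 0.80 on the others, a gap of 0.741.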

How the results depend on the processing

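No member passed the adjusted threshold in the 5 comparisons, and 99 of 103 counts under other settings were also 0. With array weights 1 member passed in the MPP4 age comparison (Ulk2, adjusted p = 0.0428), 3 in the young population comparison (Wipi1, Atg4b and Atg2a) and 3 in the difference between age differences (Atg2a, Wipi1 and Map1lc3b). The same weights called 304, 1808 and 574 of all genes there. The SAM-type statistic passed 1 member in the old population comparison (Gabarapl1, q = 0.0274) and 142 of all genes. The causes were not tested. The median difference over members in the MPP4 age comparison was 0.0701 with array weights, 0.0115 with set 1 alone and 0.0285 to 0.0758 with 1 array left out, the last without young MPP4 replicate 1. In MPP3 it was -0.0374 to 0.0195 with 1 array left out, the positive value without old MPP3 replicate 3. Between young populations it was -0.00563 without the Xist arrays and -0.00251 to 0.0371 with 1 array left out, negative without young MPP4 replicate 1. For the difference between age differences it was 0.00681 with set 1 alone. Other medians (81 of 89 values) stayed within the spread between arrays, and the 26 member differences at an unadjusted p under 0.05 kept their sign in all 538 values. These 26 were picked by their p in the same arrays, so a kept sign was likely from the start and is no added support. Members not picked this way, such as Ulk1 and Becn1 in MPP3, changed sign with set 1. Related-list genes were not run under other settings.

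Correlations of the deviations of equally numbered arrays ran from -0.192 to 0.407. The highest was between replicate 1 of young MPP4 and of young MPP3, both in set 1 with high Xist and low Eif2s3y. Such correlations cannot show whether equal numbers mark the same mice, and the main fits treated the arrays as unpaired. With the replicate number as a block no member passed, and the median difference in the MPP4 age comparison was 0.0150. The unadjusted counts of members moved by over 1.5 times in 24 of 99 values, between 2 and 8 in the MPP3 and 3 and 15 in the MPP4 age comparison.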
